A study of Mus musculus with 5 samples.

Results

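Genes of fibroblasts and of the interstitial matrix were followed across liver sinusoidal endothelial cells (LSECs), tumor endothelial cells (TECs) and a cultured hepatoma line. The set holds 38 genes, chosen by name, of 33013 gene names on the array outside long intergenic RNA loci, and each of the 38 was found on the array. The LSECs came from livers of C57BL/6 mice, and the TECs were cells that anti-CD31 magnetic beads retained from hepatomas grown in mouse livers from 3 lines, all labelled C57BL/6. The mice of the study were female and 6 weeks old when bought, per its methods. The lines HAK-1B and KYN-2 are of human origin, so their tumors were xenografts in mice, for which the methods also name BALB/c nu/nu nude mice. The array methods name Huh-7 where the labels name HAK-1B, and the labels are followed here. Hepa1-6 is a mouse hepatoma line from the C57L strain, and it was measured both as a source of tumors and as the cultured cells themselves. None of the 5 samples carried a treatment or an engineered allele in its labels, and each condition had 1 array. A difference between 2 arrays therefore has no replicate check, and the SD given over the 3 TECs is the spread between different tumors.

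Interstitial matrix is the fibrous material between cells. Fibrillar collagens form its cables, fibronectin and other glycoproteins attach cells to it, elastic fibers give it recoil, small proteoglycans coat its fibrils, and lysyl oxidases tie the molecules together. In the liver this matrix is made mainly by stellate cells and portal fibroblasts, whereas the healthy sinusoid is lined by endothelium that rests on little organized matrix. Endothelial cells also make matrix of their own, including fibronectin, SPARC and fibulins.

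The upstream regions of 4 of the genes described first are shown because these genes were higher in all 3 TECs than in LSECs. They were read from the RefSeq promoter table for GRCm38.p6, which held an entry for 21 of the 38 genes, and each is the 250 bases before the annotated start, written 5′ to 3′ on the strand of the gene. Capitals mark 3 short motifs wherever they occur, in reverse complement where they lie on the other strand. The first motif is CAGACA, an element of the kind that SMAD proteins bind. The second motif is the CCAAT box, and the third is the GC box GGGCGG. None of these overlap another in the regions shown. The regions are chr6:4505368-4505617 on the plus strand for Col1a2, chr1:45311288-45311537 on the plus strand for Col3a1, chr2:27886175-27886424 on the plus strand for Col5a1 and chr13:89742513-89742762 on the minus strand for Vcan.
Col1a2: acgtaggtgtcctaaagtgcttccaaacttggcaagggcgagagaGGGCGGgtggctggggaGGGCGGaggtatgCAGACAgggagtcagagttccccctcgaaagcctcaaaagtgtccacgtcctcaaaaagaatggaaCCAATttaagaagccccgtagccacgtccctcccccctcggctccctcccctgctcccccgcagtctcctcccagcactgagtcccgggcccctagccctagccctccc
Col3a1: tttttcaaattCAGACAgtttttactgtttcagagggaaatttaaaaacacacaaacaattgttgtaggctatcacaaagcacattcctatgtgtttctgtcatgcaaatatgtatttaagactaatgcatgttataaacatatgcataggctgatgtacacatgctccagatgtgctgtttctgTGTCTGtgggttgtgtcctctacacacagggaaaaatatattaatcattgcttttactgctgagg
Col5a1: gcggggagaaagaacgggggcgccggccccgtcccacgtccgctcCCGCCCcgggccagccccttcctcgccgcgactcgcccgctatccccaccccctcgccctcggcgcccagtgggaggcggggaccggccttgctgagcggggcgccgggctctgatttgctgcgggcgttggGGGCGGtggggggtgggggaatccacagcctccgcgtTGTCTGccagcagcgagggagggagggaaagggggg
Vcan: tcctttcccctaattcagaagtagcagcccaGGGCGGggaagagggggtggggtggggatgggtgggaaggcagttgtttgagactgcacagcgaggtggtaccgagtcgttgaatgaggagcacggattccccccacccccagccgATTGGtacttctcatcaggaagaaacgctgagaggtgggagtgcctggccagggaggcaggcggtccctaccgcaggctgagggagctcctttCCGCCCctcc
CAGACA was present in the regions of the 3 collagen genes and in 17.1% of all 32851 regions of the same length. CCAAT was present for Col1a2 and Vcan and in 33.8% of all regions, and GGGCGG for Col1a2, Col5a1 and Vcan and in 32.7%. Among the 21 genes of the set with an entry, 9 held CAGACA, 6 held CCAAT and 15 held GGGCGG. A gene was counted if any of its entries held the motif, whereas the shares above are of single regions. Besides the 3 collagen genes shown, CAGACA was held by Sparc, Tnc, Thbs2, Fbln1, Fbln5 and Serpinh1. None of those was at least 2-fold higher in all 3 TECs. These matches are letters in a window and were chosen for display after the sequences were seen.

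Signals are given as log2 of the background-subtracted, quantile-normalized intensity of the gene's brightest probe, so a step of 1 is a factor of 2. Probes differ in how strongly they bind, so levels are compared only between arrays for the same gene. A signal that the scanner software did not place well above background is named as such, and a fold against it is then a lower bound. The share of all probes well above background was 54.1% for LSEC, 57.6% for the HAK-1B TEC, 78.1% for the Hepa1-6 TEC, 54.7% for the KYN-2 TEC and 44.6% for the cultured cells. The lowest signal well above background was 2.85 in the Hepa1-6 TEC. It was 4.68 in LSEC, 4.28 in the HAK-1B TEC, 4.65 in the KYN-2 TEC and 5.96 in the cultured cells. A gene measurable in the Hepa1-6 TEC alone is therefore not necessarily higher there. Slide 1 held the LSEC array, slide 2 the 3 TEC arrays and slide 3 the cultured cells, so an effect of the slide and one of the group cannot be told apart. Where values for the TECs are given in a row without their names, the order is HAK-1B, Hepa1-6, KYN-2. The samples are bulk RNA, in which fewer cells of a type and less RNA per cell cannot be told apart.

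The leading change was in fibrillar collagens, collagen XIV, fibronectin, thrombospondin 1 and versican. In all, 8 of the 38 genes were at least 2-fold higher in each of the 3 TECs than in LSEC, which is 21.1% of the set against 3.72% of all genes, or 4.51% of the genes well above background on at least 1 array. None was at least 2-fold lower in each of the 3 TECs, against 6.48% of all genes and 7.86% of the genes above background. The HAK-1B TEC had 11 genes of the set at least 2-fold higher than LSEC (background 10.7%) and 5 lower (background 11.1%). The Hepa1-6 TEC had 13 higher (background 20.2%) and 8 lower (background 16.3%), and the KYN-2 TEC had 16 higher (background 10.2%) and 2 lower (background 11.0%). The median log2 ratio of the set to LSEC was 0.10, 0.01 and 0.76 in the TECs, beside −0.04, −0.07 and −0.04 over all genes. The set therefore did not move as a block, and its rises lay in a minority of its genes.

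**Figure D1:**
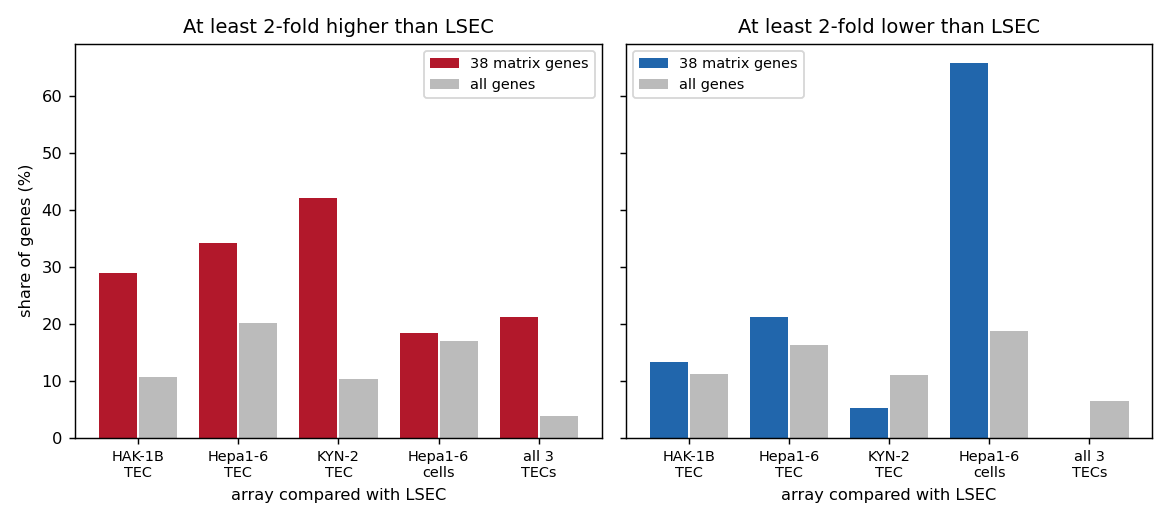
Share of the 38 matrix genes (colored bars) and of all 33013 genes (gray bars) at least 2-fold higher (left) or lower (right) than LSEC on each array, and in all 3 TECs together. The colored bars for higher genes stand above the gray ones in each TEC, and no matrix gene was lower in all 3 TECs, whereas 65.8% were lower in the cultured cells.

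A limma fit of the 3 TECs against the LSEC array, which assumes that the lone LSEC sample varies like the TECs, gave no gene of the set with an adjusted p under 0.05, nor any of the 42120 probes tested (0% background). At an unadjusted p under 0.05 it held 8 of the 38, against 9.16% of 26912 genes, and all 8 were those at least 2-fold higher in each TEC. The rule of size stated in the methods of the study calls a gene higher at a ratio of 1.5 or more if its Z-score is also 2 or more, and lower at a ratio of 0.66 or less if its Z-score is −2 or less. By that rule Col1a1 and Fn1 were higher in all 3 TECs, 2 of the 36 genes of the set it could be applied to, against 0.491% of 19330 genes. No gene of the set was lower in all 3 by it, against 0.900%.

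Among the fibrillar collagens, 4 of 5 were at least 2-fold higher in every TEC. Col1a1 encodes the main chain of type I collagen, the bulk of scar tissue, and its probe lies at chr11:94814188-94814247 (mm9, the build in the scanner files' headers). Its signal was 4.72 in LSEC, not well above background, 9.46 in the HAK-1B TEC, 10.87 in the Hepa1-6 TEC, 11.53 in the KYN-2 TEC and 4.70 in cultured Hepa1-6 cells, again not well above background. By this probe the TECs stood at least 26.7-fold, 71.1-fold and 112-fold above LSEC, with a mean log2 ratio of 5.90 ± 1.06 (SD, n = 3 TECs) and an adjusted p of 0.443 in the limma fit. All 3 of its probes that were above background on 3 or more of the LSEC and TEC arrays pointed the same way, with mean log2 ratios from 4.32 to 5.90. The other 2 of them were also well above background in LSEC and gave smaller log2 ratios, at 3.20, 4.85 and 5.27 for one and 3.05, 4.76 and 5.14 for the other, so the size of the rise depended on the probe and the bounds above hold for the brightest probe alone. The mean log2 ratio of Col1a1 was 4.12 after normexp background correction and 3.52 with all of its probes averaged.

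Col1a2, the partner chain of type I collagen, gave 8.35 in LSEC, 10.96 in the HAK-1B TEC, 11.89 in the Hepa1-6 TEC, 12.37 in the KYN-2 TEC and 4.78 in the cultured cells, where it was not well above background. Its mean log2 ratio was 3.39 ± 0.72 (SD, n = 3 TECs), and the limma adjusted p was 0.448. Col3a1, the type III collagen of reticular fibers, read 6.83 in LSEC against 9.46, 10.46 and 10.74 in the TECs and 4.80, not well above background, in the cultured cells. Its mean log2 ratio was 3.39 ± 0.67 (SD, n = 3 TECs; limma adjusted p = 0.448). With all probes of a gene averaged, dim ones included, the mean log2 ratio was 1.00 for Col1a2 and 1.26 for Col3a1. Col1a1, Col1a2 and Col3a1 took the same order across the tumors, lowest in the HAK-1B TEC and highest in the KYN-2 TEC.

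Col5a1 encodes a chain of type V collagen, which starts and limits the growth of type I fibrils. It read 6.31 in LSEC, 7.76 in the HAK-1B TEC, 8.76 in the Hepa1-6 TEC, 9.15 in the KYN-2 TEC and 4.31, not well above background, in the cultured cells, a mean log2 ratio of 2.24 ± 0.72 (SD, n = 3 TECs; limma adjusted p = 0.549). Col5a2, the other main chain of type V, went the other way, with 6.56 in LSEC against 5.39, 4.73 and 5.93 in the TECs. Its 3 TEC values were all below LSEC, by 2.24-fold, 3.56-fold and 1.55-fold. The other Col5a2 probe, not well above background in the KYN-2 TEC, also gave a negative mean log2 ratio. The 2 chains of type V collagen thus differed in sign in each of the 3 TECs.

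**Figure D2:**
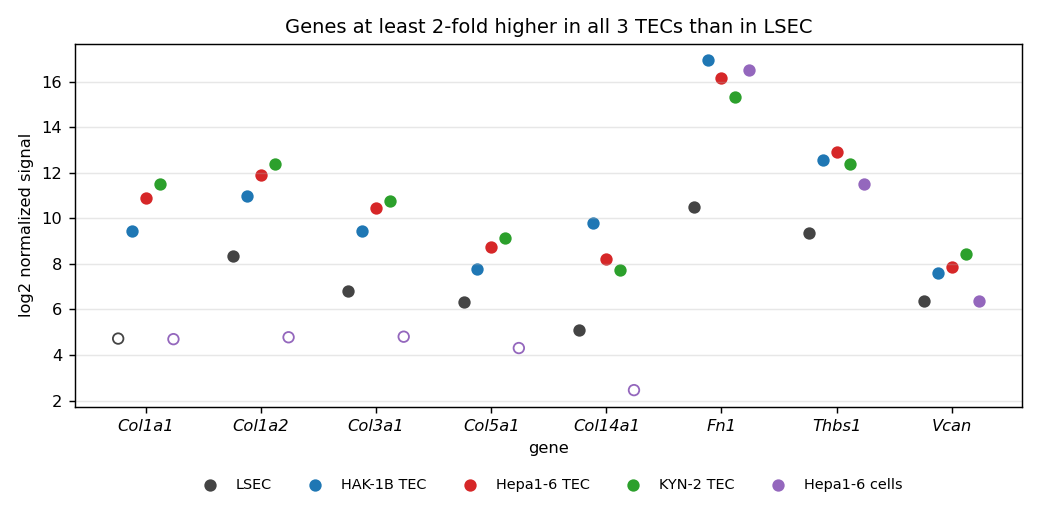
Log2 normalized signal (vertical axis) of the 8 genes at least 2-fold higher in all 3 TECs than in LSEC, with 1 point for each of the 5 arrays and open points where the signal was not well above background. For each gene the 3 TEC points lie above the LSEC point, and the 5 collagen genes were not well above background in the cultured Hepa1-6 cells, while Fn1, Thbs1 and Vcan were.

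Type VI collagen forms beaded filaments near cell surfaces, and collagens XII and XIV bind to the surface of fibrils. Col14a1 was the only one of these 5 genes at least 2-fold higher in all 3 TECs. It read 5.10 in LSEC, 9.78 in the HAK-1B TEC, 8.20 in the Hepa1-6 TEC, 7.73 in the KYN-2 TEC and 2.46, not well above background, in the cultured cells. Its mean log2 ratio was 3.47 ± 1.07 (SD, n = 3 TECs; limma adjusted p = 0.505), and 2.16 after normexp correction. In contrast to the type I and III chains, Col14a1 was highest in the HAK-1B TEC. Col6a1 was 6.41 in LSEC, 7.31 in the HAK-1B TEC, 8.90 in the Hepa1-6 TEC, 9.45 in the KYN-2 TEC and 8.39 in the cultured cells. It was therefore past 2-fold in the Hepa1-6 and KYN-2 TECs and at 1.87-fold in the HAK-1B TEC. Col6a2 was not well above background in LSEC, and the TECs stood at least 1.25-fold, 2.17-fold and 4.45-fold above the lowest measurable LSEC signal. The third chain, Col6a3, differed between its probes, with mean log2 ratios of −0.31 and 1.80. The second value came from a probe not well above background in LSEC, and no direction is given for Col6a3. Col12a1 was well above background in the Hepa1-6 TEC alone, at 3.55, although its readings on the other arrays were all higher.

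Fibronectin, the adhesive glycoprotein that many cells lay down first in a new matrix, had the steepest rise among the genes measurable on every array. Its probe at chr1:71632116-71632175 (mm9) read 10.52 in LSEC, 16.93 in the HAK-1B TEC, 16.17 in the Hepa1-6 TEC, 15.33 in the KYN-2 TEC and 16.52 in cultured Hepa1-6 cells. Fn1 was 85.0-fold, 50.4-fold and 28.1-fold above LSEC in the TECs, a mean log2 ratio of 5.63 ± 0.80 (SD, n = 3 TECs; limma adjusted p = 0.443). Its 4 probes, each above background on 3 or more of the LSEC and TEC arrays, gave mean log2 ratios between 5.40 and 5.85. The highest of these came from a probe that was not well above background in LSEC. The cultured hepatoma cells carried Fn1 at 64.4-fold the LSEC signal, within the range of the TECs.

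Thbs1 encodes thrombospondin 1, a matrix protein that restrains vessel growth and can activate TGF-beta. It read 9.36 in LSEC, 12.58 in the HAK-1B TEC, 12.91 in the Hepa1-6 TEC, 12.36 in the KYN-2 TEC and 11.49 in the cultured cells. Its mean log2 ratio was 3.26 ± 0.27 (SD, n = 3 TECs; limma adjusted p = 0.443). A second Thbs1 probe, well above background on all 5 arrays, gave log2 ratios of 3.19, 4.94 and 2.84, a wider spread. Thbs2, a close relative of thrombospondin 1, read 7.15 in LSEC against 6.26 in the HAK-1B TEC, 3.06 in the Hepa1-6 TEC and 4.79, not well above background, in the KYN-2 TEC. Thbs2 was lower in each TEC, by 1.84-fold, by 17.0-fold and by at least 5.12-fold, so the 2 thrombospondins differed in sign in all 3. The Thbs2 reading in the Hepa1-6 TEC lay near that array's lowest measurable signal, 2.85, so the size of the 17.0-fold drop is uncertain.

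Sparc, a collagen-binding glycoprotein that endothelium makes in quantity, was bright everywhere, with 17.65 in LSEC, 17.07 in the HAK-1B TEC, 16.76 in the Hepa1-6 TEC, 17.55 in the KYN-2 TEC and 15.55 in the cultured cells. By this probe all 3 TECs lay below LSEC, none by 2-fold, and the mean log2 ratio was −0.52 ± 0.40 (SD, n = 3 TECs). The next brightest Sparc probe gave log2 ratios of −0.33, −0.67 and 0.30, and a much dimmer one gave −3.43 in the Hepa1-6 TEC, so the sign in the KYN-2 TEC and the size in the Hepa1-6 TEC differed by probe. Postn and Tnc, encoding periostin and tenascin C, which are typical of activated stroma, stayed nearer to LSEC than the 5 collagen genes that were at least 2-fold higher in every TEC. Postn read 6.54 in LSEC and 5.91, 7.10 and 7.25 in the TECs, and Tnc read 5.19 in LSEC and 4.20, 4.32 and 4.89, the first of these not well above background. Neither gene passed 2-fold against LSEC in any TEC.

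Elastic fibers consist of elastin on a scaffold of fibrillin and fibulins. None of their 5 genes was past 2-fold in the same direction in all 3 TECs, and they split by tumor. Fbln2, which encodes fibulin 2, read 10.10 in LSEC, 10.83 in the HAK-1B TEC, 9.97 in the Hepa1-6 TEC and 13.17 in the KYN-2 TEC, where it was 8.38-fold higher. Fbln5, which is needed to assemble elastic fibers, read 8.82 in LSEC, 9.71 in the HAK-1B TEC, 6.09 in the Hepa1-6 TEC and 9.53 in the KYN-2 TEC. It was thus 6.63-fold lower in the Hepa1-6 TEC and 1.86-fold and 1.63-fold higher in the xenograft TECs. Eln was 5.33 in LSEC and 5.20, 3.75 and 5.53 in the TECs, so by this probe its single drop past 2-fold was in the Hepa1-6 TEC. Its other probe, not well above background in LSEC or the KYN-2 TEC, read 4.03 in LSEC and 4.70, 5.09 and 4.82 in the TECs, so the direction of Eln in the Hepa1-6 TEC differed by probe. Fbn1, the fibrillin 1 gene, stayed within 2-fold of LSEC in every TEC by its brightest probe, at 8.53 against 8.15, 8.03 and 9.44. A second Fbn1 probe, well above background on the same 4 arrays, gave log2 ratios of −0.67, −1.39 and 0.58, which puts the Hepa1-6 TEC past 2-fold lower.

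Proteoglycans carry sugar chains that bind water and growth factors. Vcan encodes versican, a large one that loosens matrix, and it read 6.37 in LSEC, 7.60 in the HAK-1B TEC, 7.88 in the Hepa1-6 TEC, 8.41 in the KYN-2 TEC and 6.36 in the cultured cells. Its mean log2 ratio was 1.60 ± 0.41 (SD, n = 3 TECs; limma adjusted p = 0.577), and a dimmer probe of the gene gave 4.24. Dimmer on average, that probe was not well above background in LSEC, at 3.20, so its value is not a measured ratio. The remaining Vcan probe gave log2 ratios of 2.13, 2.82 and 0.23, with LSEC and the KYN-2 TEC not well above background. It showed no 2-fold rise in the KYN-2 TEC. After normexp correction the mean log2 ratio of Vcan was 1.07. Of the small leucine-rich proteoglycans, Bgn (biglycan) read 9.62 in LSEC, 7.59 in the HAK-1B TEC, 7.86 in the Hepa1-6 TEC and 9.53 in the KYN-2 TEC, so by this probe it was lower past 2-fold in the HAK-1B and Hepa1-6 TECs and near the LSEC signal in the KYN-2 TEC. A dimmer Bgn probe read 6.25 in LSEC and 2.64, not well above background, in the KYN-2 TEC, so its level in that tumor differed by probe. Lum (lumican) stayed within 2-fold of LSEC in every TEC, at 6.84 against 6.37, 6.85 and 7.23. Dcn (decorin) set the Hepa1-6 tumor apart and is described with the cultured line.

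Matrix enzymes did not follow the collagens as a group, since none of the 6 was past 2-fold in the same direction in all 3 TECs. Lox, the lysyl oxidase that crosslinks collagen and elastin, was not well above background in LSEC (4.69). It was at least 2.82-fold higher in the HAK-1B TEC (6.18) and at least 9.21-fold higher in the KYN-2 TEC (7.89), while the Hepa1-6 TEC (4.52) was below the LSEC reading. Loxl1 followed the same split, with 5.06 in LSEC, 6.46 in the HAK-1B TEC, 4.87 in the Hepa1-6 TEC and 6.96 in the KYN-2 TEC. Plod2, a lysyl hydroxylase that prepares collagen for stable crosslinks, read 5.93 in LSEC, 6.46 in the HAK-1B TEC, 4.0 in the Hepa1-6 TEC and 7.95 in the KYN-2 TEC. These 3 enzymes were each higher in both xenograft TECs than in the Hepa1-6 TEC. Loxl2 was 12.17 in LSEC and 10.26, 11.98 and 12.97 in the TECs, with its only change past 2-fold by this probe a drop in the HAK-1B TEC. Its other probe, well above background on all 5 arrays, gave log2 ratios of −1.40 in the HAK-1B TEC and 1.97 in the Hepa1-6 TEC and read 10.66 in the KYN-2 TEC against 9.57 in LSEC, so it was past 2-fold higher in the Hepa1-6 and KYN-2 TECs and the mean log2 ratios of the probes differed in sign (0.56 against −0.43). Loxl3 was lower than LSEC (7.99) in all 3 TECs, at 7.36, 6.14 and 7.30. Serpinh1, the gene of the collagen chaperone HSP47, stayed within 2-fold of LSEC in every TEC, at 12.04 in LSEC and 11.25, 12.03 and 12.07 in the TECs.

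The CCN proteins are matricellular factors induced by growth factors and stretch. Ctgf read 13.55 in LSEC, 11.74 in the HAK-1B TEC, 13.32 in the Hepa1-6 TEC, 14.18 in the KYN-2 TEC and 14.62 in the cultured cells. Cyr61 read 9.88 in LSEC, 9.25 in the HAK-1B TEC, 12.05 in the Hepa1-6 TEC, 11.37 in the KYN-2 TEC and 12.46 in the cultured cells. Both genes were below LSEC in the HAK-1B TEC, and Cyr61 was 4.49-fold and 2.80-fold above it in the Hepa1-6 and KYN-2 TECs.

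**Figure D3:**
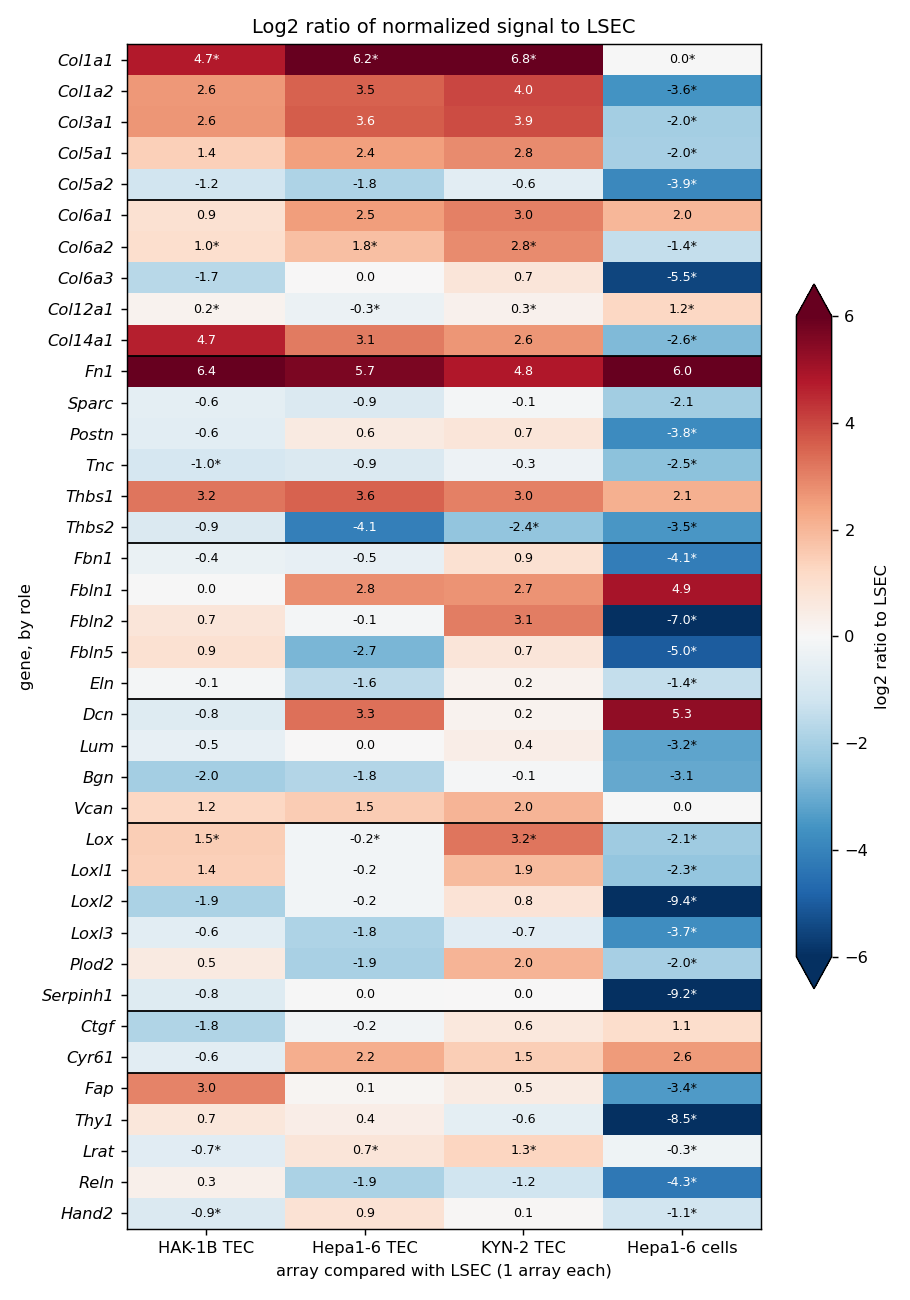
Log2 ratio of normalized signal to LSEC for the 38 genes (rows, grouped by role between black lines) on the 4 other arrays (columns), with an asterisk where either array was not well above background and colors cut off at 6. Col1a1, Col1a2, Col3a1, Col5a1, Col14a1, Fn1, Thbs1 and Vcan are red in all 3 TEC columns, whereas the column of the cultured cells is mostly blue.

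The name of the set was checked against the 5 genes that mark fibroblasts and stellate cells rather than matrix. None of them was past 2-fold in the same direction in all 3 TECs. Fap, the fibroblast activation protein of stromal cells, read 6.26 in LSEC, 9.24 in the HAK-1B TEC, 6.38 in the Hepa1-6 TEC and 6.75 in the KYN-2 TEC. Its 7.91-fold rise was thus seen in the HAK-1B tumor and not in the others, where it was 1.09-fold and 1.41-fold. Thy1, a surface glycoprotein shared by fibroblasts, T cells and some endothelium, stayed within 2-fold of LSEC in every TEC, at 10.64 against 11.34, 11.03 and 10.04. Lrat, the vitamin A storage enzyme that defines quiescent stellate cells, was not well above background in LSEC, the HAK-1B TEC or the KYN-2 TEC, and read 4.16 in the Hepa1-6 TEC. Its dim reading in the KYN-2 TEC was higher, at 4.71. Reln and Hand2, also enriched in stellate cells, gave 7.84 and 5.05 in LSEC. Reln read 8.14, 5.93 and 6.63 in the TECs, and Hand2 read 4.19, 5.91 and 5.10, the first of these not well above background. Since none of the 5 was at least 2-fold higher in all 3 TECs, the set is called matrix genes here.

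Markers of other cell types moved between the same arrays, and their part in the matrix values was not tested. The 14 pan-endothelial markers were well above background on all 4 endothelial arrays, yet 10 of them were at least 2-fold lower in all 3 TECs than in LSEC. Their summed normalized signal was 571500 in LSEC, 83323 in the HAK-1B TEC, 84086 in the Hepa1-6 TEC, 171424 in the KYN-2 TEC and 4724 in the cultured cells. The probe of Egfl7 weighed most in the sum on every array, and such a weight, given for each list, is no order of transcript levels between genes. Tek, the receptor for angiopoietins, fell from 12.83 to 9.17, 8.26 and 9.53. Of 10 LSEC markers, 9 were lower in all 3 TECs, with sums of 764238, 99860, 87963, 111989 and 1324 in the same order of arrays and Clec4g weighing most in LSEC and the Hepa1-6 TEC.

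Mural cells, the pericytes and smooth muscle cells around vessels, were the marker list with the most risers. Of its 14 genes, 4 were at least 2-fold higher in all 3 TECs and none was lower in all 3. Pdgfrb, the receptor that defines pericytes, read 5.12 in LSEC, 6.54 in the HAK-1B TEC, 7.59 in the Hepa1-6 TEC and 7.87 in the KYN-2 TEC. Kcnj8, a potassium channel of pericytes, read 9.97 in LSEC and 11.77, 12.64 and 12.74. The list summed to 24597 in LSEC, 75786 in the HAK-1B TEC, 42954 in the Hepa1-6 TEC, 64873 in the KYN-2 TEC and 28117 in the cultured cells, with Mcam, which endothelium also expresses, weighing most on the 4 endothelial arrays. Ndufa4l2, another gene of the list, was not well above background in LSEC.

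Among 15 stellate cell markers outside the set, Colec10 was at least 2-fold lower in all 3 TECs, at 8.38 in LSEC against 4.82, 6.06 and 6.71, and the count of higher genes is not reported here. The sums over the list were 24915, 71249, 59805, 31080 and 49807 across LSEC, the TECs and the cultured cells, with Ecm1 weighing most on every array, and Hhip was not well above background on any of the 4 endothelial arrays. Fibroblast markers outside the set gave 2 of 13 higher in all 3 TECs, Gsn and Cd34, both of which other cells including endothelium express, and 1 lower, Twist1. Their sums were 7096, 41573, 20103, 35020 and 10176, with Gsn weighing most on every array. The fibroblast list and the stellate list share Pdgfra, and the stellate and mural lists share Rgs5 and Des. Mesothelial markers gave 1 of 7 higher in all 3 TECs (Msln) and none lower, with sums of 239, 192, 605, 699 and 1296. Gpm6a weighed most in LSEC and the HAK-1B TEC and Msln on the other arrays, and Lrrn4 was not above background on any endothelial array. The median over genes of the mean log2 ratio of the 3 TECs was 0.26 for the stellate list, 0.17 for the fibroblast list, 1.02 for the mural list and 0.85 for the mesothelial list, beside 0.21 for the matrix genes, −2.37 for the pan-endothelial list and −2.74 for the LSEC list.

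**Figure D4:**
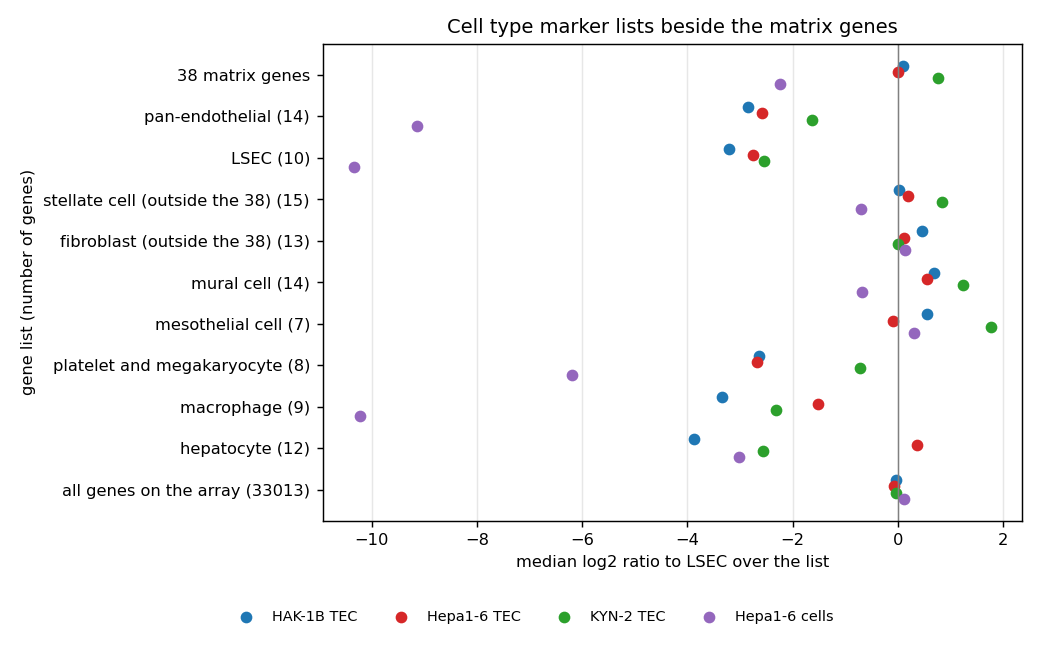
Median log2 ratio to LSEC (horizontal axis) of each cell type marker list and of the 38 matrix genes, with 1 point for each of the 3 TECs and for cultured Hepa1-6 cells and the number of genes in parentheses. The pan-endothelial and LSEC lists lie left of −1.5 in every TEC, and the mural cell list lies right of 0.5 in every TEC.

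Blood and parenchymal markers were also present. All 8 platelet genes and all 9 macrophage genes were well above background on the 4 endothelial arrays. The platelet list, which is named here because platelets carry thrombospondin 1, had none higher and 2 of 8 lower in all 3 TECs, with sums of 106449, 42678, 67318, 140730 and 692 and Pf4 weighing most in the 3 TECs. The macrophage list had none higher and 5 of 9 lower, with sums of 774868, 599482, 391930, 442062 and 1605 and Lyz2 weighing most in the 3 TECs. The 5 lower genes were Clec4f, Cd5l, Marco, Vsig4 and Timd4. Cd68 and Lyz2 were not below LSEC in any TEC, with log2 ratios of 0.85, 0.12 and 1.25 and of 0.83, 0.02 and 0.40. Adgre1 and Csf1r were below LSEC in the Hepa1-6 and KYN-2 TECs only. Of 12 hepatocyte genes, 1 was higher and 3 were lower in all 3 TECs, and the sums were 48257 in LSEC, 7678 in the HAK-1B TEC, 78293 in the Hepa1-6 TEC, 15301 in the KYN-2 TEC and 27087 in the cultured cells, with Alb weighing most in the Hepa1-6 TEC and the cultured cells. The hepatocyte sum was thus higher in the Hepa1-6 TEC than in either xenograft TEC.

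Other matrix genes gave a mixed picture beside the collagens. Of 25 genes that process collagen, 3 were at least 2-fold higher in all 3 TECs and 2 were lower. Fkbp10, a chaperone of type I collagen in the endoplasmic reticulum, read 7.60 in LSEC and 11.78, 10.61 and 12.24 in the TECs. Bmp1, the protease that trims the C-terminal propeptide of procollagen, read 7.27 in LSEC and 10.68, 10.07 and 10.14. Pcolce2, an enhancer of that protease, went the other way, from 11.04 to 6.04, 9.78 and 7.07. Both the protease and the chaperone were higher in the same TECs as Col1a1, but in the cultured cells, where Col1a1 was not well above background, Bmp1 read 11.61 and stood 20.3-fold above LSEC. In all, 20 of the 25 processing genes were not past 2-fold in the same direction in all 3 TECs.

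Of 18 other interstitial collagens, none was at least 2-fold higher in all 3 TECs and 2 were lower. Col13a1, a membrane-anchored collagen, fell from 13.81 in LSEC to 9.42, 9.60 and 10.73 in the TECs. Of 10 other leucine-rich proteoglycans, none was higher and 2 were lower, among them Prelp, which fell from 12.44 to 8.60, 10.18 and 9.62, and 4 were not above background on any endothelial array. Of 32 other matrix glycoproteins, 4 were higher and 3 lower. Ltbp3 and Ltbp4 both encode proteins that hold latent TGF-beta in the matrix, and they moved in opposite directions. Ltbp3 rose from 8.05 to 11.61, 11.60 and 10.70, and Ltbp4 fell from 16.07 to 12.91, 12.30 and 14.07. Of 20 YAP and TEAD targets, a list to which Ctgf and Cyr61 also belong, 2 were higher and 3 lower. Igfbp3 rose from 8.99 to 14.82, 14.25 and 16.24, and F3, which encodes tissue factor, rose from 6.13 to 9.85, 9.61 and 11.30. The 3 lower targets were Amotl1, Amotl2 and Asap1, and Amotl2 fell from 11.64 to 8.74, 8.85 and 9.75.

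The 3 tumors differed in which matrix genes they held. The KYN-2 TEC had the highest signal of the 3 TECs for 25 of the 38 genes (65.8%), against 27.5% of the genes above background on at least 1 array. The HAK-1B TEC had the lowest for 20 of the 38 (52.6%), against 33.3%. It had the highest for 8 of the 38 (21.1%), among them Col14a1, Fn1 and Fap, against 30.7%. The Hepa1-6 TEC had the highest for 5 (13.2%, against 41.9%) and the lowest for 14 (36.8%, against 38.9%). With 1 array per tumor these orders were not tested.

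Cultured Hepa1-6 cells were compared with LSEC to see which matrix genes the hepatoma line itself expresses. By the brightest probe, signals well above background were found there for 10 of the 38, which were Col6a1, Fn1, Sparc, Thbs1, Fbln1, Dcn, Bgn, Vcan, Ctgf and Cyr61. In these cells 7 of the 38 were at least 2-fold higher than LSEC (background 17.0%) and 25 were lower (background 18.7%). The lowest signal well above background on that array was 5.96, which is high, and with dim signals set no lower than each array's lowest measurable signal the count of lower genes was 13 (background 14.0%). Among these, by the brightest probe, Loxl2 was at least 73.7-fold lower, Serpinh1 at least 67.4-fold, Thy1 at least 25.6-fold and Fbln2 at least 17.6-fold. The second Loxl2 probe was measurable in the cultured cells, and its log2 ratio was −1.59. By the methods' rule of size, Fn1 was higher in the cultured cells (background 2.13%) and Fbln2, Loxl2, Serpinh1 and Thy1 were lower (background 4.16%), of the 33 genes the rule could be applied to. The fibrillar collagen genes were all below the measurable range in this line.

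Dcn, the gene of decorin, separated the cultured line from LSEC and the Hepa1-6 tumor from the xenografts. Its probe at chr10:96980233-96980292 (mm9) read 11.44 in LSEC, 10.65 in the HAK-1B TEC, 14.72 in the Hepa1-6 TEC, 11.66 in the KYN-2 TEC and 16.74 in the cultured cells. The Hepa1-6 TEC stood 9.74-fold above LSEC and the xenograft TECs 0.578-fold and 1.17-fold. Fbln1, which encodes fibulin 1, read 4.93 in LSEC, 4.91 in the HAK-1B TEC, 7.72 in the Hepa1-6 TEC, 7.63 in the KYN-2 TEC and 9.87 in the cultured cells. The other 2 Fbln1 probes were lower in the KYN-2 TEC than in LSEC, the brighter of them not well above background in that TEC. The level of Fbln1 in that tumor thus differs by probe. For Dcn, Fbln1 and Cyr61 the order was the same, cultured cells first and the Hepa1-6 TEC next.

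Set against the mean of the HAK-1B and KYN-2 TECs, 4 of the 38 genes were at least 2-fold higher in the Hepa1-6 TEC (background 16.4%). Another 9 were counted as lower (background 10.8%). Thbs2 was also more than 2-fold lower, at a log2 difference of −2.47, and lies outside the 9. Its signal in the KYN-2 TEC was not well above background. The higher genes were Dcn, Fbln1, Cyr61 and Hand2. The 9 counted as lower were Fbln2, Fbln5, Eln, Lox, Loxl1, Loxl3, Plod2, Fap and Reln. The other probe of Eln and the next brightest of Reln, both not well above background in LSEC and the KYN-2 TEC, did not share this order, with log2 ratios to LSEC of 1.06 and 1.29 in the Hepa1-6 TEC against 0.67 and 1.09 in the HAK-1B TEC. The first 3 of the higher genes were among the 10 well above background in the cultured line, and all 9 of the lower genes were among the 28 that were not. Of all genes well above background in the line, 13.6% were higher and 10.1% lower. Of all genes that were not, 18.8% were higher and 11.4% lower. The median log2 difference between the Hepa1-6 TEC and the xenograft mean was 0.40 over the 10 genes and −0.39 over the 28. Over all genes the same split gave −0.02 for 15566 genes above background in the line and −0.13 for 17447 that were not. Whether RNA of hepatoma cells entered the Hepa1-6 TEC sample, or human RNA bound mouse probes on the xenograft arrays, was not tested.

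**Figure D5:**
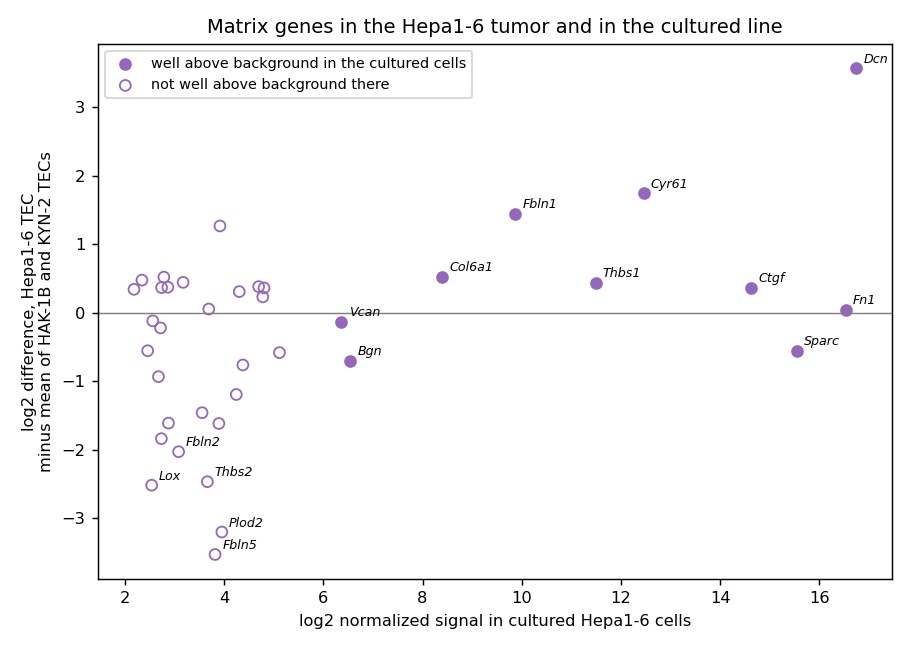
Log2 difference between the Hepa1-6 TEC and the mean of the HAK-1B and KYN-2 TECs (vertical axis) against log2 normalized signal in cultured Hepa1-6 cells (horizontal axis) for the 38 genes, with open points where the cultured cells were not well above background. Dcn stands highest on both axes at 3.57 and 16.74, and Fbln5 and Plod2, dim in the cultured cells, stand lowest.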

How the data were processed

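RNA was measured on 5 arrays of the Agilent 60-mer mouse design, 1 per condition. The authors amplified, labelled and hybridized cRNA and extracted spot intensity values with Agilent Feature Extraction 9.5.1.1, per the labels and the methods; the deposited intensity column used here is background-subtracted. The deposited table of the same arrays served as an alternative. It ranked probes as the scanner values do and had the same median in each column, and comparisons rest on it only in the closing section. Other columns hold flags and probe annotation.

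Spots of a probe were averaged and their log2 signals brought to common quantiles across the 5 arrays (limma 3.58.1 in R 4.3.3), and 4449 long intergenic RNA probes were left out of gene counts. A gene was represented by whichever of its probes was brightest on average. The 2-fold rule asked that the brighter array be well above background. limma compared the 3 TECs with LSEC over 42120 probes, with 2 residual degrees of freedom and Benjamini-Hochberg adjustment. The limma fit and the 2-fold rule were tested on simulated data with brighter probes only, the same small noise for each and large changes. That setting is easier than these arrays, so it checks the code and not the power for dim genes or differing tumors. A gene not well above background on 1 array is given as a bound against the higher of that array's lowest measurable signal and its own. Repeated spots of a probe had a median CV between 2.53% and 2.93%, which covers technical error only, and the number of arrays limits precision.

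The 38 genes and all other lists were chosen with earlier results of these data known. All 38 are described. Of each other list, the text names up to 3 genes with the largest mean change against LSEC, and where it names others they were chosen after their values were seen. Groups follow the labels. Alternatives were other scalings, a background correction, all probes of a gene, other thresholds and each TEC left out. One marker gene is not reported here.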

Additional observations from a re-analysis of the deposited data

Results flagged for a closer look

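Fbln5 moved in opposite directions in different tumors. Its log2 ratio to LSEC was −2.73 in the Hepa1-6 TEC, 0.89 in the HAK-1B TEC and 0.71 in the KYN-2 TEC, a difference of −3.53 between the first and the mean of the others. Cyr61 was lower than LSEC in the HAK-1B TEC, at −0.63, and higher in the Hepa1-6 and KYN-2 TECs, at 2.17 and 1.49, a difference of −2.46. In both cases 1 tumor moved at least 1.5-fold one way and the other tumors at least 1.5-fold the opposite way. With 1 array per tumor neither difference was tested.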

How the results depend on the processing

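Leaving out each TEC in turn gave 8 to 12 genes at least 2-fold higher in all remaining TECs, with all 8 genes of the full comparison among them each time, and 0 to 2 lower. The lower pair was Thbs2 and Reln without the HAK-1B TEC and Col5a2 and Bgn without the KYN-2 TEC. The median log2 ratio over the set ranged from 0.01 without the KYN-2 TEC to 0.41 without the HAK-1B TEC, beside 0.21 with all 3. Across the other scalings, the background correction and the use of all probes, 6 to 10 genes were at least 2-fold higher in all 3 TECs. Col5a1 and Vcan were not among them after normexp correction with an offset of 50, and Col1a2 was not when all probes were averaged, which adds 3 probes that were dim on at least 4 arrays. Averaging probes also made 1 gene (Bgn) lower in all 3, and a 1.5-fold threshold made 3 lower.

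By the methods' rule of size the 2 genes higher in all 3 TECs became 5 after normexp, 5 with signals required above background on both arrays, 6 with dim signals at the floor, and 10 higher and 3 lower without the Z-score. For the cultured cells the 1 higher gene became 2 under 75th percentile scaling, normexp or averaged probes, 3 under either background filter and 7 without the Z-score. The 4 lower genes became 0 with signals above background on both arrays and 25 without the Z-score. At 2-fold, the 25 genes lower in the cultured cells became 13 with dim signals at the floor and 2 when both arrays had to be above background. The median log2 ratio of the set in the cultured cells, −2.23, became −0.82 after normexp, −1.64 with averaged probes, −0.15 with dim signals at the floor and 2.06 over the 10 genes above background on both arrays, where only expressed genes remain. The median difference between the Hepa1-6 TEC and the xenograft mean was near 0 at −0.04 and turned to 0.18 under 75th percentile scaling and 0.12 with averaged probes. The 75th percentile scaling shifted the median of all genes to −0.40, 0.29, −0.14 and 0.84 in the HAK-1B TEC, the Hepa1-6 TEC, the KYN-2 TEC and the cultured cells. Under it 77.3% of the genes of the set past 2-fold in the Hepa1-6 TEC were higher, against 61.9%, and 73.3% against 55.3% over all genes. The floor, and the floor's background share, were added after the data were seen, and for changes other than those explained above the cause was not tested.

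The limma fit gave 0 genes of the set at an adjusted p under 0.05 in each of its alternatives. At an unadjusted p under 0.05 the count for the set varied, as did the count over all probes. Without the Hepa1-6 TEC the count for the set fell and the count over all probes rose. No paired analysis was possible because no group had more than 1 array. A term for the slide could not be fitted, since the LSEC array, the 3 TEC arrays and the cultured cells lay on separate slides. The values are limited by the signal over background in the dim genes and by the single array per condition.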
